A study of Mus musculus with 48 samples.

Results

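The 6 genes described here are those of the leptin receptor locus and its first signalling steps: Lepr (the leptin receptor), Leprot and Leprotl1 (the leptin receptor overlapping transcript and its paralog), Jak2, Stat3 and Socs3. They were found by gene symbol among the 55416 genes counted in every liver, and all 6 passed the low-count filter that kept 15621 genes for testing. The 6 genes were chosen by their CPM across the 6 genotypes in these same livers. Their values are therefore given as a description, with no test of a genotype effect, and such tests are given only for other genes of the pathway. The lists of those genes were also chosen with earlier results of these data known, which limits their counts, medians and adjusted p values too.

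Liver RNA came from 48 mice of the C57Bl/6J strain that had 8 weeks of western diet, 8 for each of 6 genotypes. The knock-in study (DN) compared wild-type (DN:WT), heterozygous (DN:HET) and homozygous (DN:HOM) mice carrying the dominant negative change W441R in LXRα, the oxysterol receptor encoded by Nr1h3. The knockout study (KO) compared KO:WT, KO:HET and KO:HOM mice of an LXRα knockout line, with controls of its own. Feeding began at about 8 weeks of age in both studies. The methods name male mice for the knock-in study, and all 48 livers had more reads of Y-linked genes than of Xist. The knock-in line goes back to a founder made with CRISPR-Cas9, and the knockout line to a mixed Sv129/C57Bl/6 stock that was then backcrossed. Both alleles are present in the whole animal, not in hepatocytes alone, and the tissue is whole liver. Genotype and study site cannot be told apart between the DN and KO groups, so each homozygous group was compared with wild-type livers of its own study.

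Leptin is a hormone of fat cells. Its receptor has no kinase activity of its own and is bound by the tyrosine kinase JAK2, which phosphorylates the receptor once leptin binds and so recruits the transcription factor STAT3. STAT3 induces SOCS3, an inhibitor that binds the receptor complex and ends the signal. LEPROT and LEPROTL1 are small membrane proteins of the endosomal system that limit how much leptin receptor and growth hormone receptor reaches the cell surface. The liver makes mostly short and soluble forms of the leptin receptor, and counts per gene do not separate these forms. STAT3 and SOCS3 also act downstream of interleukin-6 and its relatives, and SOCS3 is thus not a measure of leptin alone.

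Reads on genes lay between 5332897 and 16961379 per liver, with a median of 15879971.5, and 2 livers of the knockout study, KO:HET animal 3 and KO:HOM animal 17, had fewer than 10000000. Levels are counts per 1000000 reads (CPM) after TMM scaling. Nr1h3 had 93.6 ± 8.82 CPM (SD, n = 8) in KO:WT, 59.2 ± 5.63 CPM (SD, n = 8) in KO:HET and 27.002 ± 1.99 CPM (SD, n = 8) in KO:HOM livers. A point mutation is not read from the level of its gene, which was 89.2 ± 8.60 CPM (SD, n = 8) in DN:WT, 92.7 ± 4.58 CPM (SD, n = 8) in DN:HET and 74.6 ± 5.95 CPM (SD, n = 8) in DN:HOM livers. The livers labelled DN:WT animal 10 and DN:HOM animal 12 went against their labels. Over the 500 most variable genes of the knock-in study, animal 10 had a correlation of 0.237 with the DN:WT mean and 0.960 with the DN:HOM mean. Animal 12 had 0.970 with the DN:WT mean and 0.312 with the DN:HOM mean. Their Nr1h3 levels were 71.3 CPM in animal 10 and 86.9 CPM in animal 12, while the other DN:WT livers had 82.1 CPM or more and the other DN:HOM livers 77.4 CPM or less. Every other liver of these groups lay nearer to its own group. Fold changes of the 6 genes in DN:HOM livers are given over all 48 livers and over the other 46. Beside a fold change printed for another gene, the 46-liver value is given where the call changed or a called value moved by over 1.5 times. No liver was moved to another group.

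The sequences around the start sites of Leprot, Lepr and Socs3 are shown first, since Leprot and Lepr are neighbours on 1 strand whose levels stood on opposite sides of their controls in DN:HOM livers, and Socs3 is the STAT3 target of the group. They run from 250 bases before to 50 bases after a RefSeq start site, on the strand of the gene, and come from the GRCm38.p6 build of the RefSeq tables, whereas the reads were aligned to GRCm39. RefSeq entries were matched for 5 of the 6 genes, with 2 start sites for Lepr. Leprot lies at chr4:101647533-101647832 (+), the start sites of Lepr at chr4:101717157-101717456 (+) and chr4:101717656-101717955 (+), and Socs3 at chr11:117969317-117969616 (−). Capitals mark the matches to the 4 motifs that were searched.
Leprot: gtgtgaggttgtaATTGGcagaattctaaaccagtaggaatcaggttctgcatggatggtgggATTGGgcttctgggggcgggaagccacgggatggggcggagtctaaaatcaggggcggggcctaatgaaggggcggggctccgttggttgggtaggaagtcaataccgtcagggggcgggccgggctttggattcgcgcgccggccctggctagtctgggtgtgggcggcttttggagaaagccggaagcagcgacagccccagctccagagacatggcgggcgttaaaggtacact
Lepr, first start site: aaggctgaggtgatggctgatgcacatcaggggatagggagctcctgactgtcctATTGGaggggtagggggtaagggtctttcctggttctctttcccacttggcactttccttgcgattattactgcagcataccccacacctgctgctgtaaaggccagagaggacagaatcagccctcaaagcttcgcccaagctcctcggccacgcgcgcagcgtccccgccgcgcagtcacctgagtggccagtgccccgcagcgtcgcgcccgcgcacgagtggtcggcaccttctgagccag
Lepr, second start site: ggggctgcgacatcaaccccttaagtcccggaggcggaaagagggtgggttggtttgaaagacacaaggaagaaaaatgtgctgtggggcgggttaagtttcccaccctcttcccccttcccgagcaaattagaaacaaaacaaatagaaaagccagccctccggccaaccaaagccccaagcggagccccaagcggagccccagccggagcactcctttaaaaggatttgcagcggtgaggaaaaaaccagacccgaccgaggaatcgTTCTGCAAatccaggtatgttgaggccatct
Socs3: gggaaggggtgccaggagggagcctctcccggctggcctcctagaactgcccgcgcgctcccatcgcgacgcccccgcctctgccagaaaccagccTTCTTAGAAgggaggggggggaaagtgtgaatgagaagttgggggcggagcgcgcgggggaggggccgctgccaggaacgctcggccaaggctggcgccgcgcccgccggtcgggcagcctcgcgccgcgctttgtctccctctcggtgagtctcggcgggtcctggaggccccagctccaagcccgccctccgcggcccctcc

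The motifs were the STAT element TTCNNNGAA, the C/EBP element TTGCNNAA, the DR4 element bound by LXR and the CCAAT box, each on both strands. A STAT match stood in the Socs3 window (TTCTTAGAA, bases 97 to 105) and in none of the other windows of these genes. It is held by 8.30% of the 32851 RefSeq windows of this length. The second Lepr window held a C/EBP match on the reverse strand (TTCTGCAA, bases 270 to 277), as 10.8% of all windows did. CCAAT boxes on the reverse strand stood at bases 14 and 64 of the Leprot window and at base 56 of the first Lepr window, and 37.4% of all windows have 1. No window of these genes held the DR4 element, which 0.0152% of all windows do. These letters describe the windows and were not tested as binding sites.

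Lepr was low in this tissue and lower still in mutant mice (ENSMUSG00000057722, chromosome 4 of GRCm39 from 101574601 to 101676237, + strand). The lowest, median and highest levels were 2.998, 4.62 and 8.47 CPM in DN:WT livers. They were 1.69, 2.19 and 3.09 CPM in DN:HET livers. They were 1.85, 2.30 and 4.06 CPM in DN:HOM livers. The 2 mutant groups of the knock-in study covered nearly the same range, and only 1 DN:HET liver exceeded the lowest DN:WT liver. The highest DN:HOM value was that of animal 12. Without animals 10 and 12 the DN:HOM livers ended at 2.910 CPM and the DN:WT livers began at 2.998 CPM, so the groups did not overlap but were separated by a narrow gap.

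In the knockout study Lepr ranged more widely among controls. KO:WT livers had 3.22, 8.74 and 39.0 CPM as lowest, median and highest values. KO:HET livers had 1.96, 4.19 and 9.39 CPM. KO:HOM livers had 0.617, 1.53 and 3.18 CPM, so every KO:HOM liver lay below every KO:WT liver. KO:HET livers lay between and overlapped both. The KO:WT mean of 13.7 ± 12.8 CPM (SD, n = 8) rested on animals 33 and 34, with 39.0 and 27.8 CPM, while the other 6 controls had at most 11.8 CPM. The KO:WT livers thus had a coefficient of variation of 93.5%, against 33.1% in DN:WT livers.

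**Figure D1:**
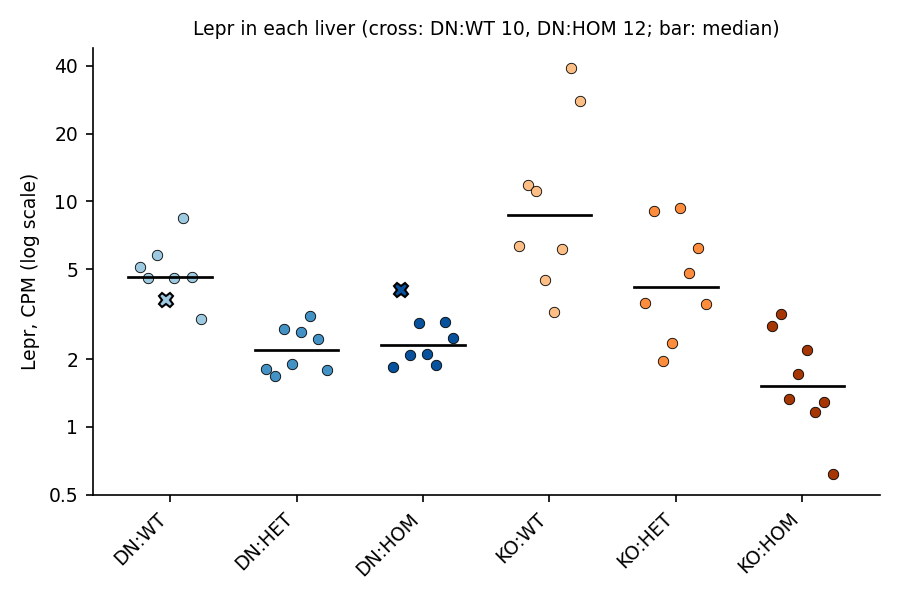
Lepr in CPM (log axis) in each of 48 livers, by genotype, with 1 point per liver and a bar at the median of 8 livers. Every KO:HOM liver lies below every KO:WT liver, KO:WT animals 33 and 34 stand at 39.0 and 27.8 CPM, and crosses mark DN:WT animal 10 and DN:HOM animal 12.

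The fitted log2 fold change of Lepr was -2.92 (standard error 0.39) in KO:HOM and -1.46 (standard error 0.36) in KO:HET against KO:WT livers. The first equals a level 7.57-fold lower. Without KO:WT animals 33 and 34, which were left out after their values were seen, these fold changes were -1.99 (standard error 0.32) and -0.52 (standard error 0.30). Against DN:WT livers the log2 fold change was -0.98 (standard error 0.36) in DN:HOM and -1.14 (standard error 0.37) in DN:HET livers. Without animals 10 and 12 these were -1.14 (standard error 0.39) and -1.20 (standard error 0.38). Across all genes tested, 0.371% had KO:HOM livers wholly below KO:WT livers. For DN:HOM below DN:WT the share was 0.064% over 48 livers and 15.8% over 46. The homozygous effect was larger in the knockout study by 1.94 (standard error 0.52) on the log2 scale, and by 1.01 (standard error 0.43) without KO:WT animals 33 and 34. These shares are background to genes chosen for their levels, and nothing is read from them.

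Few reads stood behind these levels. Lepr had between 7 and 588 reads per liver, with a median of 48. KO:HOM livers had 7, 23 and 50 reads as lowest, median and highest. An exact Poisson interval at 95% for 7 reads runs from 2.81 to 14.4 reads and covers counting error only. Per read counted for Lepr, reads on the opposite strand came to 3.02%, the lowest value among the 6 genes, and the highest was 12.4% for Socs3.

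Leprot, in contrast to Lepr, was higher in DN:HOM than in DN:WT livers (ENSMUSG00000035212, chromosome 4 of GRCm39 from 101504482 to 101516597, + strand). In the GENCODE annotation of GRCm39 used here its end lies 58003 bases before the start of Lepr, so the genes do not overlap in it, and whether they overlap in the release used for alignment was not checked. DN:WT livers had 14.6, 15.6 and 27.5 CPM as lowest, median and highest levels. DN:HET livers had 13.1, 16.6 and 28.04 CPM. DN:HOM livers had 15.6, 31.1 and 32.97 CPM. The highest DN:WT value was that of animal 10 and the lowest DN:HOM value that of animal 12. Without these livers DN:WT ended at 20.1 CPM and DN:HOM began at 25.1 CPM, and the groups no longer overlapped.

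The log2 fold change of Leprot in DN:HOM livers was 0.68 (standard error 0.14) over 48 livers and 0.90 (standard error 0.12) over 46. Over 46 livers 17.8% of all genes tested lay wholly above DN:WT in DN:HOM livers, so such a separation was common there, and over 48 the share was 0.0512%. In DN:HET livers the log2 fold change was 0.02 (standard error 0.14). KO:WT livers had 12.4, 14.7 and 17.5 CPM. KO:HOM livers had 13.9, 16.9 and 23.4 CPM and overlapped them. The log2 fold change there was 0.28 (standard error 0.14), and that of KO:HET livers was 0.03 (standard error 0.14).

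Within each liver the reads of Leprot can be set against those of Lepr, which no scaling between libraries affects. DN:WT livers had 2.37, 3.35 and 7.54 Leprot reads per Lepr read as lowest, median and highest values. DN:HET livers had 4.22, 8.28 and 16.6. DN:HOM livers had 3.84, 13.1 and 16.4. Without animals 10 and 12 the DN:WT livers ended at 4.86 and the DN:HOM livers began at 9.61. In the knockout study KO:WT livers had 0.328, 1.77 and 4.33, KO:HET livers 1.31, 3.79 and 8.33, and KO:HOM livers 6.29, 11.2 and 24.4. Here too the KO:HOM and KO:WT livers did not overlap, as they did not for Lepr alone. Both genes were chosen by their levels, so the ratio restates those levels and nothing further is read from it. The ratio compares livers, not the levels of the 2 genes, whose transcripts differ in length.

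**Figure D2:**
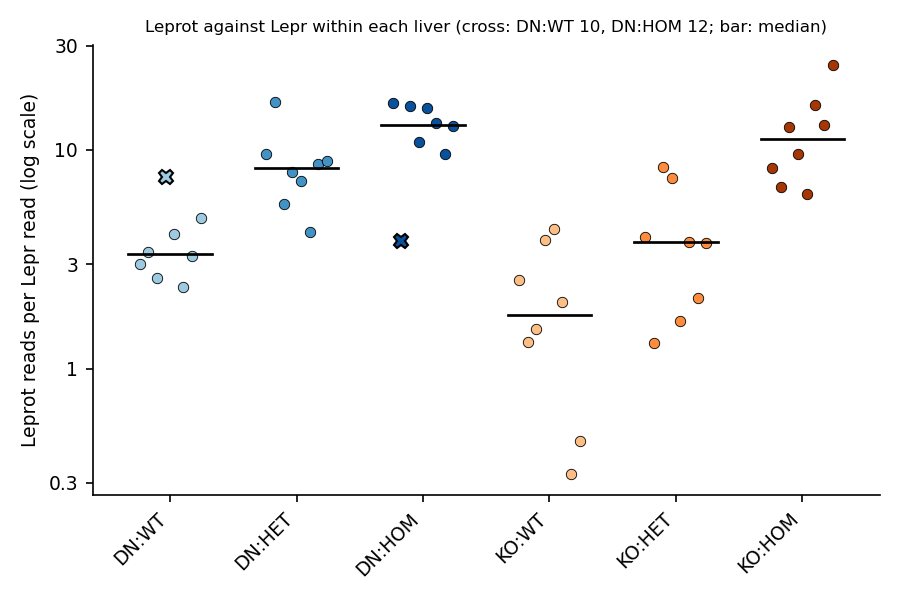
Leprot reads per Lepr read (log axis) in each of 48 livers, by genotype, with a bar at the median of 8 livers. The medians are 3.35 in DN:WT and 13.1 in DN:HOM livers, and 1.77 in KO:WT and 11.2 in KO:HOM livers, while DN:HOM animal 12 (cross) stands at 3.84.

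Leprotl1, the paralog of Leprot on another chromosome, overlapped its wild-type livers in every mutant group and had its largest fold change in DN:HET livers (ENSMUSG00000031513, chromosome 8 of GRCm39 from 34602721 to 34614370, − strand). DN:WT livers had 14.3, 19.1 and 21.8 CPM as lowest, median and highest levels. DN:HOM livers had 18.2, 20.4 and 23.8 CPM, and the groups overlapped. DN:HET livers had 14.8, 22.6 and 28.1 CPM, the highest median of the 6 groups. The 3 groups of the knockout study had medians of 16.2 (KO:WT), 16.8 (KO:HET) and 18.3 CPM (KO:HOM). The log2 fold changes were 0.14 (standard error 0.11) in DN:HOM, 0.28 (standard error 0.11) in DN:HET, 0.13 (standard error 0.11) in KO:HOM and 0.07 (standard error 0.11) in KO:HET livers. Over 46 livers those of the knock-in study were 0.15 (standard error 0.12) and 0.30 (standard error 0.12). Leprot in DN:HOM livers stood 0.68 above its controls on the same scale.

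Jak2, the kinase bound to the receptor, was somewhat higher in homozygous livers of both studies and in heterozygous livers of the knock-in study (ENSMUSG00000024789, chromosome 19 of GRCm39 from 29228677 to 29290505, + strand). KO:WT livers had 17.3, 20.3 and 21.6 CPM as lowest, median and highest levels. KO:HOM livers had 21.1, 25.7 and 30.6 CPM. Only KO:HOM animal 22, at 21.1 CPM, lay below the highest control. Its log2 fold change there was 0.40 (standard error 0.10). DN:WT livers had 16.3, 20.6 and 28.9 CPM, and DN:HOM livers had 21.6, 24.6 and 27.97 CPM, with animal 10 the highest of the controls. The log2 fold change in DN:HOM livers was 0.23 (standard error 0.10) over 48 livers and 0.33 (standard error 0.10) over 46. DN:HET livers had 19.4, 23.4 and 33.7 CPM, with a log2 fold change of 0.23 (standard error 0.10) over 48 livers and 0.31 (standard error 0.10) over 46. KO:HET livers had 18.4, 19.4 and 26.5 CPM, with 0.07 (standard error 0.10).

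Stat3, the transcription factor, had the highest CPM of the 6 genes, also per kilobase (ENSMUSG00000004040, chromosome 11 of GRCm39 from 100775924 to 100830450, − strand). KO:WT livers had 76.3, 96.7 and 112 CPM as lowest, median and highest levels. KO:HOM livers had 86.8, 125 and 157 CPM, and 2 of 8 lay within the range of the controls. The log2 fold change was 0.40 (standard error 0.12). DN:WT livers had 65.3, 74.7 and 114 CPM and fell into 5 livers at or below 75.2 CPM and 3 at or above 110.7 CPM, of which animal 10 was 1. DN:HOM livers had 77.6, 102 and 113 CPM. The groups overlapped, with a log2 fold change of 0.22 (standard error 0.12) over 48 livers and 0.34 (standard error 0.12) over 46. DN:HET livers had 73.1, 85.9 and 120 CPM, and KO:HET livers 84.3, 100.3 and 110 CPM. Under the alternatives run, the log2 fold change lay between 0.07 and 0.13 in DN:HET and between 0.03 and 0.12 in KO:HET livers.

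Socs3, the feedback inhibitor, was higher in homozygous livers of both studies and varied widely from liver to liver (ENSMUSG00000053113, chromosome 11 of GRCm39 from 117856905 to 117860898, − strand). DN:WT livers had 4.54, 6.49 and 21.3 CPM as lowest, median and highest levels. DN:HET livers had 2.72, 8.05 and 19.3 CPM. DN:HOM livers had 7.06, 26.02 and 65.8 CPM. The top control was animal 10 and the lowest DN:HOM liver animal 12. Without them the DN:WT livers ended at 11.6 CPM and the DN:HOM livers began at 14.4 CPM, a separation in this direction that 17.8% of all genes tested showed over 46 livers. The log2 fold change in DN:HOM livers was 1.68 (standard error 0.43) over 48 livers and 2.15 (standard error 0.43) over 46, the latter a level 4.45-fold higher.

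KO:WT livers had 2.996, 6.68 and 14.7 CPM of Socs3, KO:HET livers 4.23, 8.23 and 26.7 CPM, and KO:HOM livers 2.90, 16.6 and 36.7 CPM. Of the KO:HOM livers, 5 of 8 lay above every KO:WT liver, while KO:HOM animal 22 was the lowest liver of all 3 groups. The log2 fold change was 1.18 (standard error 0.43) in KO:HOM and 0.53 (standard error 0.43) in KO:HET livers. Homozygous livers had coefficients of variation of 62.9% (DN:HOM) and 61.9% (KO:HOM) for Socs3, against 11.7% and 18.2% for Stat3. The DN:HOM effect on Socs3 minus the KO:HOM effect was 0.49 (standard error 0.60) over 48 livers and 0.97 (standard error 0.58) over 46. The window before the Socs3 start site holds the STAT match printed above.

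**Figure D3:**
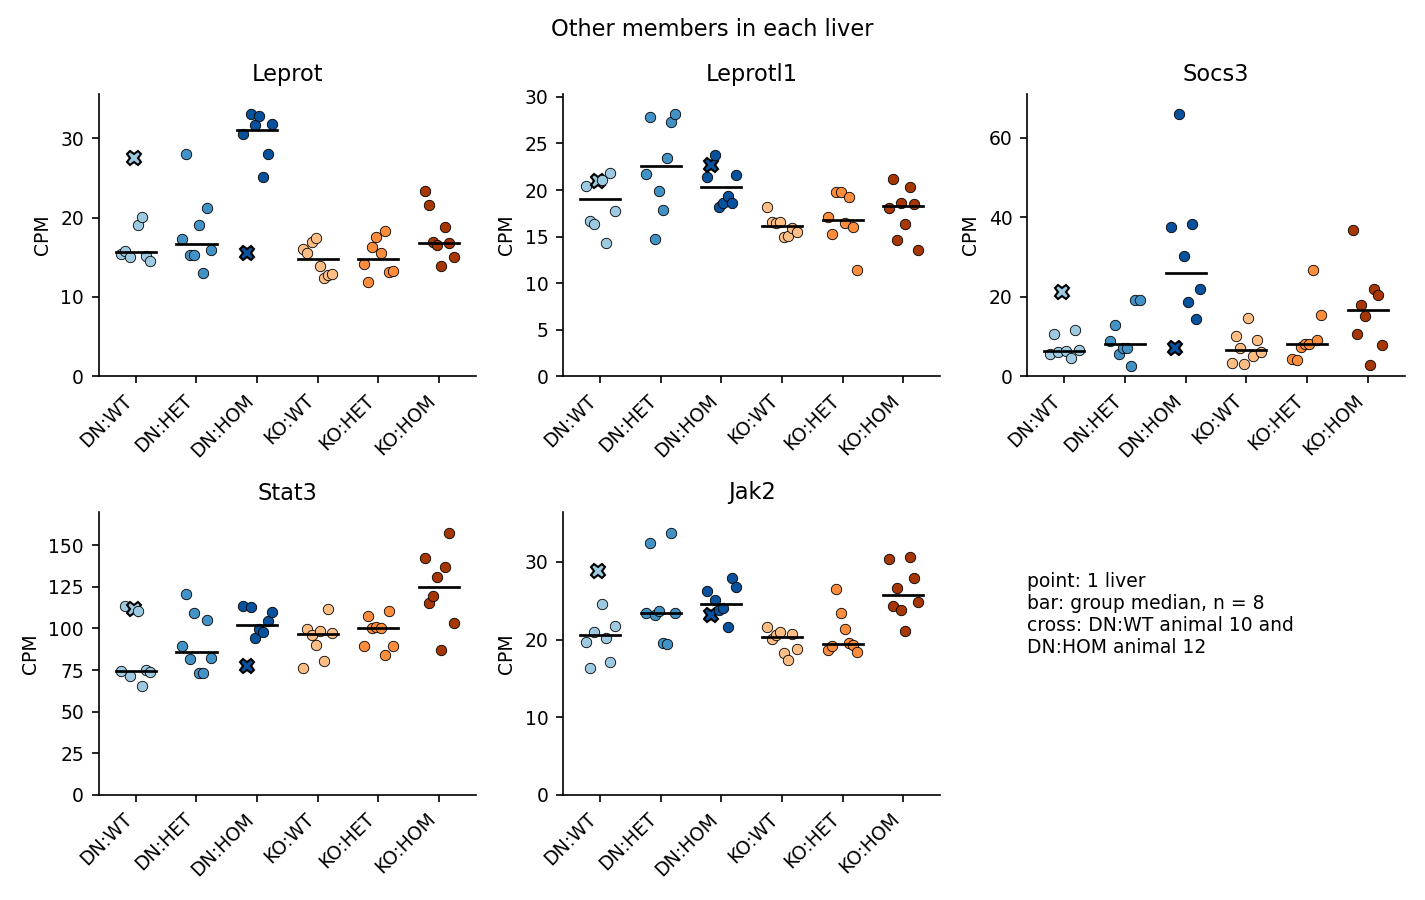
Leprot, Leprotl1, Socs3, Stat3 and Jak2 in CPM (linear axes from 0) in each of 48 livers, by genotype, with a bar at the median of 8 livers. For Leprot and Socs3 the cross in DN:WT (animal 10) stands among the DN:HOM livers and the cross in DN:HOM (animal 12) among the DN:WT livers, and Socs3 reaches 65.8 CPM in 1 DN:HOM liver.

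**Figure D4:**
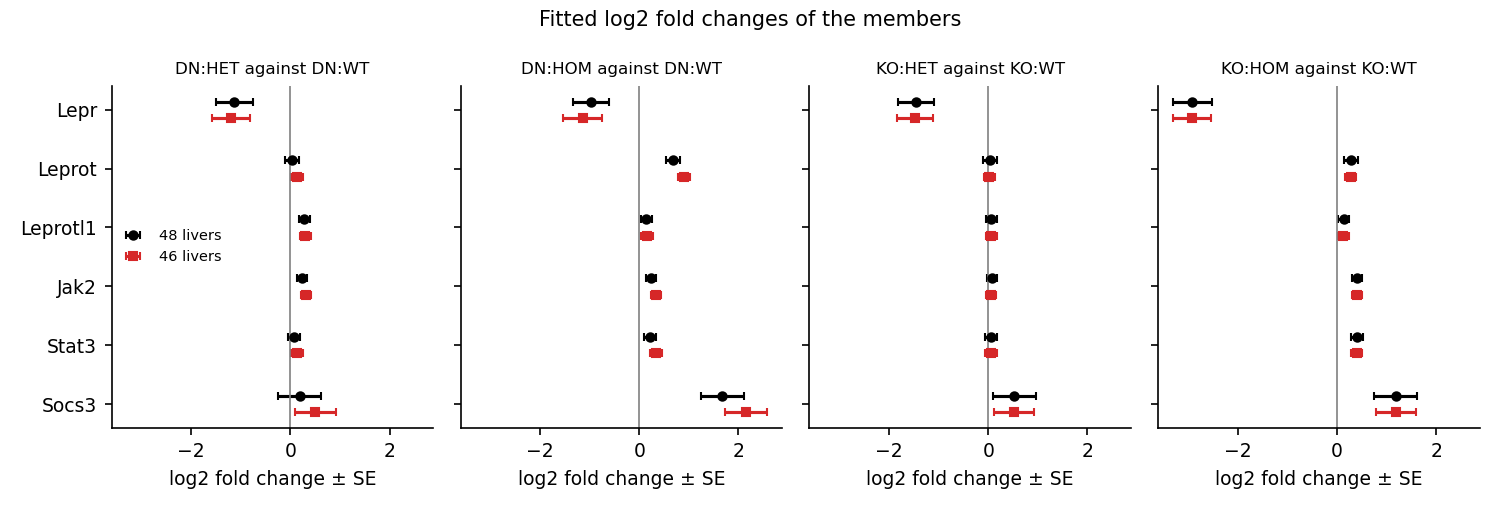
Fitted log2 fold changes against wild-type livers of the same study, with bars of 1 standard error, over 48 livers (black) and over 46 without DN:WT animal 10 and DN:HOM animal 12 (red). Lepr lies below 0 in all 4 comparisons. Leprot lies farther above 0 in DN:HOM livers (0.68 and 0.90) than in its other comparisons, and Socs3 lies above 0 in both homozygous groups.

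Per kilobase of exon, Stat3 had the highest mean level in every group, from 8.63 to 12.3 CPM per kb, and Lepr the lowest, from 0.161 to 1.23 CPM per kb. The other 4 genes lay between 2.07 and 8.21 CPM per kb and overlapped in most groups, so their order is not firm. In DN:WT livers it was Leprotl1 (5.25 ± 0.771, SD, n = 8), Leprot (3.76 ± 0.926, SD, n = 8), Jak2 (3.34 ± 0.638, SD, n = 8) and Socs3 (2.56 ± 1.56, SD, n = 8). In DN:HOM livers Socs3 stood second, at 8.21 ± 5.17 CPM per kb (SD, n = 8), and its spread covered Leprot at 6.02 ± 1.24 (SD, n = 8).

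Across all 48 livers Lepr ran against the other 5 genes, with Spearman correlations of log2 CPM from -0.665 (Jak2) to -0.375 (Stat3 and Leprotl1). After each group's mean was subtracted these lay between -0.231 (Jak2) and -0.05 (Stat3), so most of the relation lay between groups. Leprot and Jak2 had 0.684 over the livers and 0.587 within groups, and Socs3 and Stat3 had 0.572 and 0.533. These values share libraries and groups and describe them only.

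The genes whose pattern over the 48 livers was most like that of Lepr, among 11723 with a mean log2 CPM above 1, were Fads1 (a desaturase of polyunsaturated fatty acids, 0.734), Tm7sf2 (a sterol reductase of cholesterol synthesis, 0.720), As3mt (an arsenic methyltransferase, 0.705), Apoa1 (the main protein of high-density lipoprotein, 0.699) and Pole4 (a subunit of DNA polymerase epsilon, 0.686), by Spearman correlation. After subtraction of group means they were Pole4 (0.738), Pfkfb1 (a liver enzyme of fructose 2,6-bisphosphate, 0.718), St3gal5 (the GM3 ganglioside synthase, 0.713), Fkbp5 (a co-chaperone of the glucocorticoid receptor, 0.711) and Cdip1 (0.701). Pole4 was in both sets.

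Within 1 Mb of Lepr the files hold 34 other annotated genes, of which 7 passed the filter, Leprot and Jak1 among them. Cachd1, a calcium channel regulator, had the largest fitted value there, 1.15 (standard error 0.31) in DN:HOM and 0.58 (standard error 0.33) in KO:HOM livers on the log2 scale, the former 1.77 (standard error 0.25) over 46 livers. Jak1, another JAK kinase, had 0.16 (standard error 0.06) and 0.09 (standard error 0.06). The long non-coding RNA E130102H24Rik had -0.50 (standard error 0.18) and -0.57 (standard error 0.18), and it overlaps 0610043K17Rik on the other strand, at -1.04 (standard error 0.24) and -0.21 (standard error 0.23). Ak4, a mitochondrial adenylate kinase, had -0.42 (standard error 0.18) and 0.15 (standard error 0.18), and Pde4b, a cyclic AMP phosphodiesterase, -0.31 (standard error 0.25) and 0.10 (standard error 0.26). Over 46 livers the DN:HOM value of Pde4b was -0.50 (standard error 0.26). No tested neighbour had a fitted value as low as that of Lepr in KO:HOM livers. This did not hold in DN:HOM livers, where 0610043K17Rik, at -1.04, was about as low as Lepr, at -0.98 (standard error 0.36). Over 46 livers the DN:HOM values were -1.36 (standard error 0.21) for 0610043K17Rik and -1.14 (standard error 0.39) for Lepr.

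The rest of the pathway was covered by 50 genes in 6 lists, of which 47 passed the filter. In DN:HOM livers 14 rose and 5 fell, 19 of 47 (40.4%), at an adjusted p under 0.05 in edgeR's quasi-likelihood test. The share among all genes tested was 48%. Over 46 livers 20 rose and 8 fell, 28 of 48, against 59.1% of all genes, and with library size alone 34 passed, against 60.4%. In KO:HOM livers 8 rose and 1 fell, 9 of 47 (19.1%), against 12.9% of all genes, and over 46 livers 10 of 48 against 19.4%. Without KO:WT animals 33 and 34 the KO:HOM count was 5, against 8.12% of all genes, and Ptpn1, Pim3, Lcn2 and Orm2 no longer passed. Between the studies, the homozygous effects of 4 of 47 listed genes differed, against 10.5% of all genes, and over 46 livers those of 14 of 48, against 34.7%. The median log2 fold change over the listed genes was 0.19 in DN:HOM and 0.14 in KO:HOM livers, against -0.02 for all genes in both.

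Among partners of the receptor, Mapk3 (the kinase ERK1) rose and Pik3r1 (a regulatory subunit of phosphoinositide 3-kinase) fell in DN:HOM livers, 2 of 9 tested (22.2%, against 48% of all genes), and 5 of 9 passed over 46 livers (55.6%, against 59.1%). Mapk3 had 28.997, 32.2 and 68.8 CPM as lowest, median and highest levels in DN:WT livers and 32.7, 70.5 and 78.8 CPM in DN:HOM livers, and its log2 fold change was 0.83 (standard error 0.13, edgeR adjusted p = 2.5e-05). Pik3r1 had -0.47 (standard error 0.11, edgeR adjusted p = 0.00086), a call that was lost with library size alone, at -0.14 (edgeR adjusted p = 0.18). None of the 9 passed in KO:HOM livers, against 12.9% of all genes, with 1 at an unadjusted p under 0.05, against 26.3% of all genes. Leptin itself (Lep) had too few reads for testing, with a highest value of 0.915 CPM in any liver.

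Of the other JAK kinases and STAT factors, Jak1 and Stat6 rose and Stat2 fell in DN:HOM livers, 3 of 7 tested (42.9%, against 48% of all genes), by 0.16 (standard error 0.06), 0.30 (standard error 0.09) and -0.38 (standard error 0.12) on the log2 scale. Over 46 livers 6 of 8 passed, where 59.1% of all genes did. The call of Stat2 was lost with library size alone, at -0.05 (edgeR adjusted p = 0.75), and that of Jak1 with no low-count filter, at 0.17 (edgeR adjusted p = 0.054). In KO:HOM livers Jak3, a kinase of lymphocyte cytokine receptors, rose by 0.57 (standard error 0.15, edgeR adjusted p = 0.0074), 1 of 7, where 12.9% of all genes passed. In DN:HOM livers Jak3 had 0.29 (standard error 0.15, edgeR adjusted p = 0.10) over 48 livers and 0.45 (standard error 0.15, edgeR adjusted p = 0.0071) over 46.

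Of 8 negative regulators, 3 rose and none fell in each homozygous group, 37.5% against 48% of all genes in DN:HOM and 12.9% in KO:HOM livers. Ptpn1, the phosphatase PTP1B that acts on JAK2, rose by 0.39 (standard error 0.13) in both. Its KO:HOM call was lost with no low-count filter (edgeR adjusted p = 0.055) and without KO:WT animals 33 and 34 (edgeR adjusted p = 0.12). Ptpre, another tyrosine phosphatase, rose by 1.42 (standard error 0.39) in DN:HOM and 1.56 (standard error 0.41) in KO:HOM livers. The third was Ptpn2 in DN:HOM livers, at 0.28 (standard error 0.11), and Socs1 in KO:HOM livers. Over 46 livers the DN:HOM values were 2.26 (standard error 0.34) for Ptpre and 0.43 (standard error 0.10) for Ptpn2. The call of Ptpn2 was lost with each study fitted alone (edgeR adjusted p = 0.065). Socs1, an inhibitor of JAK kinases induced by interferon, had 0, 0.176 and 0.605 CPM in KO:WT livers and 0.819, 5.42 and 10.9 CPM in KO:HOM livers, with no overlap, a separation that 2.19% of all genes tested showed in this direction. Its log2 fold change was 4.42 (standard error 0.60, edgeR adjusted p = 4.6e-06), and the effect differed from that in DN:HOM livers, 0.97 (standard error 0.52), by -3.45 (standard error 0.80, edgeR adjusted p = 0.0073). Socs1 was also the listed gene that rose in DN:HET livers, by 2.24 (standard error 0.52, edgeR adjusted p = 0.038), 1 of 47 against 0.25% of all genes. The call was lost with library size alone, with each study fitted alone and without the 2 shallow livers, at an edgeR adjusted p of up to 0.14. Over 46 livers 4 of 48 rose against 2.3%, namely Socs1, Csf3r, Lcn2 and Orm2. There Csf3r had 1.71 (standard error 0.45), Lcn2 2.22 (standard error 0.63) and Orm2 1.73 (standard error 0.45), against 1.03, -0.30 and 0.69 over 48 livers. In KO:HET livers 0 of 47 passed in edgeR and in DESeq2, against 0.0192% of all genes in edgeR. At an unadjusted p under 0.05 there were 5, against 4.54% of all genes.

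Interleukin-6 and its relatives reach STAT3 through receptors of the gp130 family. Among these Osmr, the oncostatin M receptor, and Il27ra rose in DN:HOM livers, 2 of 8 tested (25%, against 48% of all genes). Over 46 livers 3 rose and 1 fell, 4 of 8, where 59.1% of all genes passed. The receptor gene that fell was Lifr, at -0.78 (standard error 0.26, edgeR adjusted p = 0.0086). Over 48 livers Lifr had -0.46 (standard error 0.26, edgeR adjusted p = 0.14). Osmr had 1.70, 3.83 and 21.2 CPM in DN:WT and 4.27, 17.5 and 25.03 CPM in DN:HOM livers, with a fitted log2 value of 1.53 (standard error 0.33, edgeR adjusted p = 0.00031) over 48 livers and 2.44 (standard error 0.23) over 46. Its value in KO:HOM livers, 0.94 (standard error 0.34), did not pass over 48 livers, at an edgeR adjusted p of 0.059, and passed over 46 at the same value (standard error 0.22, edgeR adjusted p = 0.0014). The DN:HOM effect on Osmr minus the KO:HOM effect was 0.59 (standard error 0.47, edgeR adjusted p = 0.43) over 48 livers and 1.499 (standard error 0.31, edgeR adjusted p = 0.00019) over 46. Il27ra had 0.67 (standard error 0.28) in DN:HOM livers, a call that was lost with no low-count filter (edgeR adjusted p = 0.074). Il27ra and Csf3r, the receptor of granulocyte colony-stimulating factor, rose in KO:HOM livers, by 1.46 (standard error 0.30) and 2.31 (standard error 0.52). These were 2 of 8 tested (25%, against 12.9% of all genes), and 3 of 8 passed over 46 livers, where 19.4% of all genes did. In DN:HOM livers Csf3r had 1.12 (standard error 0.48, edgeR adjusted p = 0.051) over 48 livers and 1.96 (standard error 0.46, edgeR adjusted p = 0.00027) over 46.

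Of 14 genes known to respond to STAT3 in liver, 6 rose and 2 fell in DN:HOM livers, and 2 rose and 1 fell in KO:HOM livers. These are 57.1% against 48% of all genes and 21.4% against 12.9%, and over 46 livers 64.3% against 59.1% and 21.4% against 19.4%. The list had a median log2 fold change of 0.57 and 0.24, against -0.02 for all genes. Lcn2 and Orm2, acute-phase proteins, rose in both. Without KO:WT animals 33 and 34 the KO:HOM calls of this list were lost, at an edgeR adjusted p of 0.13 for Lcn2, 0.062 for Orm2 and 0.10 for Pim3, and that of Lcn2 was also lost with no low-count filter (edgeR adjusted p = 0.056). Lcn2 had 9.37, 21.7 and 928 CPM in DN:WT and 28.2, 634 and 1034 CPM in DN:HOM livers, where animal 10 was the control at 928 CPM, and its log2 fold change was 2.04 (standard error 0.80) over 48 livers and 4.76 (standard error 0.71) over 46. The call of Lcn2 in DN:HOM livers was lost with each study fitted alone (edgeR adjusted p = 0.084). Orm2 rose by 1.78 (standard error 0.53) in DN:HOM and 1.90 (standard error 0.54) in KO:HOM livers, and the former was 2.98 (standard error 0.47) over 46 livers. Junb and Cebpd, immediate early transcription factors, rose by 1.13 (standard error 0.26) and 0.78 (standard error 0.26) in DN:HOM livers, with Bcl3 (0.53, standard error 0.20) and Lbp (0.40, standard error 0.16, and 0.61, standard error 0.16, over 46 livers). Pim3, a survival kinase, fell in both, by 0.87 and 0.72 on the log2 scale, and Pim1 fell in DN:HOM livers by 0.76, a call that was lost with library size alone (edgeR adjusted p = 0.068). Saa1, Saa2 and Myc had positive values in both that did not pass, though Myc passed in DN:HOM livers over 46 livers, at 1.66 (standard error 0.57, edgeR adjusted p = 0.012). The remaining listed genes, Cebpb, Fgg and Hamp, did not pass in either group. Their mean levels in DN:WT and DN:HOM livers were 121 and 119 CPM (Cebpb), 2709 and 2517 CPM (Fgg) and 185 and 164 CPM (Hamp). In KO:WT and KO:HOM livers they were 213 and 192 CPM (Cebpb), 2734 and 2301 CPM (Fgg) and 403 and 470 CPM (Hamp).

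Ghr, the growth hormone receptor whose surface level the LEPROT proteins limit, fell at the RNA level in DN:HOM livers, where 48% of all genes passed. It had 260, 586 and 703 CPM in DN:WT and 210, 248 and 636 CPM in DN:HOM livers, and the fitted log2 value was -0.88 (standard error 0.16, edgeR adjusted p = 6.5e-05) over 48 livers and -1.22 (standard error 0.11) over 46. The lowest control was again animal 10 and the highest DN:HOM liver animal 12. In KO:HOM livers it was -0.10 (standard error 0.16), and the effects differed by -0.77 (standard error 0.23, edgeR adjusted p = 0.025). The call of this difference was lost with no low-count filter (edgeR adjusted p = 0.0503). Leprot, in these same livers, stood higher in DN:HOM than in DN:WT as described above. A relation between Leprot and Ghr was not tested, and RNA levels do not show the receptor at the cell surface.

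**Figure D5:**
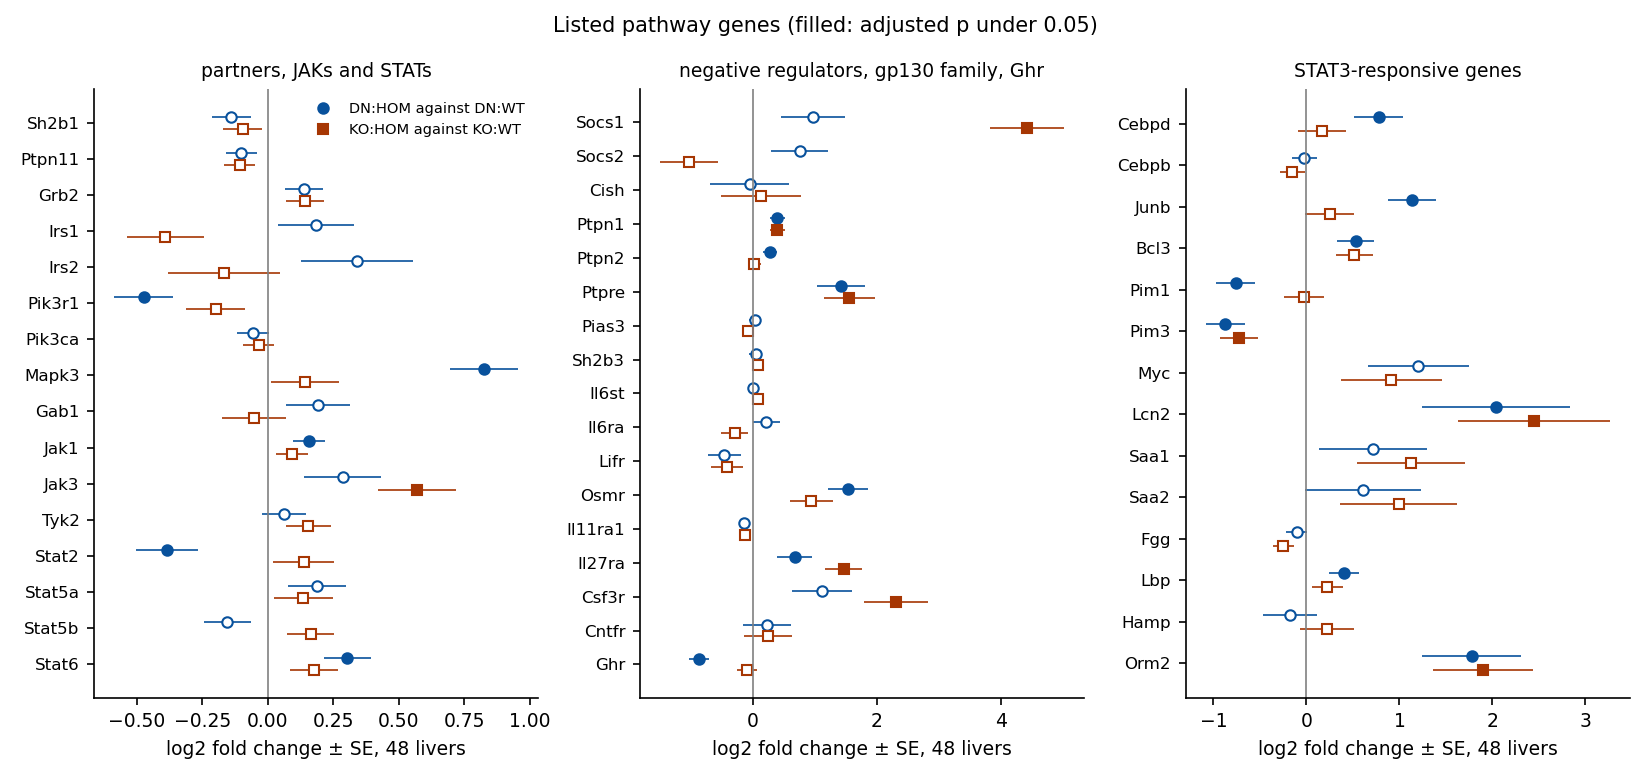
Fitted log2 fold changes of the 47 tested pathway genes over 48 livers in DN:HOM (circles) and KO:HOM livers (squares), with bars of 1 standard error and filled points where the adjusted p was under 0.05. Socs1 (4.42) and Csf3r (2.31) rose in KO:HOM livers, and Ghr (-0.88) and Mapk3 (0.83) moved in DN:HOM livers. Csf3r had 1.12 in DN:HOM livers (edgeR adjusted p = 0.051), and its difference between studies did not pass (edgeR adjusted p = 0.26).

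Markers of several cell types moved with the homozygous groups, and their part in the levels above was not tested. The counts are of markers at an adjusted p under 0.05, which 48% of all genes reached in DN:HOM, 0.25% in DN:HET and 12.9% in KO:HOM livers, and 59.1%, 2.3% and 19.4% over 46 livers. Hepatocyte markers fell in DN:HOM livers (5 of 8) and KO:HOM livers (2 of 8, and 6 of 8 over 46 livers), with summed levels of 35783 to 86029 CPM in DN:HOM and 46275 to 84825 CPM in DN:WT livers over 48 livers, and 35783 to 45892 and 66271 to 84825 CPM over 46. Cholangiocyte markers rose in DN:HOM livers (6 of 6), from 30.3 to 1162 CPM in DN:WT, animal 10 at the top, to 43.4 to 1070 CPM in DN:HOM livers, animal 12 at the bottom. Over 46 livers these were 30.3 to 70.8 and 723 to 1070 CPM. None passed in KO:HOM livers, and 1 of 6 over 46 livers. Stellate cell markers rose in 5 of 8 in DN:HOM and 2 of 8 in KO:HOM livers, and in 6 of 8 in each over 46 livers. Their sum was 215 to 618 CPM in DN:WT livers, animal 10 at the top, and 223 to 675 CPM in DN:HOM livers, animal 12 at the bottom, and over 46 livers 215 to 262 and 485 to 675 CPM, with no overlap. Macrophage markers moved both ways, 3 of 8 higher and 4 lower in DN:HOM and 3 higher and 2 lower in KO:HOM livers. Their sum was 186 to 1199 CPM in DN:WT and 212 to 1200.4 CPM in DN:HOM livers, over 46 livers 186 to 367 and 720.2 to 1200.4 CPM, and 112 to 422 CPM in KO:WT and 221 to 945 CPM in KO:HOM livers. T cell markers rose in 2 of 6 in DN:HOM, 3 of 6 in DN:HET and 6 of 6 in KO:HOM livers (4, 5 and 6 over 46 livers), with 1.99 to 5.92 CPM in KO:WT and 5.92 to 25.2 CPM in KO:HOM livers. Endothelial markers fell in 5 of 8 and rose in 1 in DN:HOM livers, and neutrophil markers rose in 3 of 3 tested there, with Ly6g at 0 reads in DN:HET, KO:WT and KO:HET livers. No B cell marker passed in either homozygous group over 48 livers, while 1 of 5 erythroid markers and the only adipocyte marker tested fell in DN:HOM livers. In whole liver, fewer cells of a type and less RNA per cell cannot be told apart.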

How the data were processed

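Liver RNA of 48 mice was sequenced as stranded mRNA libraries. The authors aligned the reads with STAR 2.5.0a to GRCm39, per the submitters' processing notes, and deposited raw counts of reads per gene and liver, unstranded and by strand. Stranded counts were used, from the strand that held 6.97 to 8.62 times as many reads as its opposite. Reads that named no gene, 24.0% to 35.0% per liver, were left out. Symbols and positions came from a GENCODE annotation of GRCm39 that held 54749 of 55416 identifiers (98.8%). Counts of genes that overlap on 1 strand are uncertain.

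Genes were fitted with edgeR 4.0.16 in R 4.3.3 (filterByExpr, TMM scaling, quasi-likelihood test, 6 group means, Benjamini-Hochberg adjustment over all genes tested, threshold 0.05, two-sided). Log2 CPM used a prior count of 2. CPM per kilobase used the union of exons. Animals are separate mice by their labels, and 8 per group set the precision. On simulated data for KO:HOM against KO:WT (15621 genes, 200 changed), 68.6% of genes changed by 1 and 93.0% changed by 2 on the log2 scale were called, and 14 of 15421 unchanged genes. No unmatched column of values was present.

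The alternatives were DESeq2 1.42.0, upper-quartile scaling, library size alone, unstranded counts, low-count filters left out or set to a mean of 1 CPM, separate fits of the studies, no DN:WT animal 10 and DN:HOM animal 12, no liver under 10000000 reads, an adjusted p under 0.01 and the longest transcript for length. Leaving out KO:WT animals 33 and 34 was added after the data were seen. The 6 genes and the lists were chosen with earlier results of these data known. Named genes are the 6, listed pathway and marker genes, genes within 1 Mb of Lepr, the 5 most like Lepr over all livers and within groups, and Nr1h3. Only some genes of this rule are printed, and some genes of the pathway are not reported here and stand outside the lists and their counts. Python 3.11.15, pandas 2.3.3, scipy 1.17.1 and matplotlib 3.10.9 were used.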

Additional observations from a re-analysis of the deposited data

Results flagged for a closer look

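In 36 groups of 8 livers, 1 for each of the 6 genes and 6 genotypes, the highest or lowest liver was compared with the rest by Dixon's ratio at its 95% critical value, which chance exceeds in about 1 in 20 groups. Leprot stood apart in DN:WT animal 10, at 27.5 CPM, and in DN:HOM animal 12, at 15.6 CPM. Socs3 stood apart in DN:WT animal 10, at 21.3 CPM. The 6 genes were chosen by these same values, so the ratios describe single livers and support nothing further.

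The homozygous effects differed between the studies for 4 of 47 listed genes (8.51%, against 10.5% of all genes), by edgeR's test of the difference (DN minus KO, log2 scale). Mapk3 differed by 0.68 (adjusted p = 0.016, 4.5e-10 to 0.025 over the alternatives), Stat2 by -0.52 (adjusted p = 0.036, 0.0018 to 0.22), Socs1 by -3.45 (adjusted p = 0.0073, 0.00073 to 0.019) and Ghr by -0.77 (adjusted p = 0.025, 1.1e-07 to 0.0503).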

How the results depend on the processing

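Of the fold changes of the 6 genes under alternatives, 276 stayed within 1 standard deviation between livers of the reported value and 6 moved further. With library size alone, where the median of all genes shifted to 0.32 in DN:HOM livers, the log2 fold changes there were 0.46 for Leprotl1, 0.55 for Stat3 and 0.55 for Jak2, and their differences between studies were 0.21 for Leprotl1 and 0.03 for Jak2. The difference for Lepr was 1.01 without KO:WT animals 33 and 34. Lepr was lower in each mutant group under every alternative run, from -1.14 to -0.65 in DN:HOM and from -2.95 to -1.99 in KO:HOM livers.

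Of pathway genes, DN:HOM livers had 12 calls at an adjusted p under 0.01 (32.8% of all genes) and 34 with library size alone (60.4% of all genes). DN:HET livers had 0 at the stricter threshold, with library size alone, with each study alone and without the 2 shallow livers. They had 4 without DN:WT animal 10 and DN:HOM animal 12. The shares of all genes there were 0%, 0.154%, 0%, 0.215% and 2.3%, in that order. KO:HOM livers had 5 at the stricter threshold (6.32% of all genes) and 5 without KO:WT animals 33 and 34 (8.12%). The difference between studies had 1 at the stricter threshold, against 1.77% of all genes. It had 14 without animals 10 and 12 (34.7%) and 2 with no low-count filter (2.90%). In DN:HOM livers Sh2b1 (0.21) and Ptpn11 (0.23) turned positive with library size alone, from -0.14 and -0.10. The difference for Lcn2 turned from -0.41 over 48 livers (edgeR adjusted p = 0.85) to 2.32 without animals 10 and 12 (edgeR adjusted p = 0.029). Apart from the stricter threshold, at least 1 alternative ended the call of 7 pathway genes in DN:HOM livers, of 4 in KO:HOM livers, of 2 (Stat2 and Ghr) in the difference and of Socs1 in DN:HET livers. The causes were not tested. By the longest transcript, Socs3 moved in the order of levels per kilobase from 5 to 3 in KO:HET and from 3 to 2 in KO:HOM livers, and the order of the 6 genes was the same in the other 4 groups. No paired analysis was possible because the animal numbers are not shared between genotypes of a study. Among the 6 genes, Lepr, at a median of 48 reads, is the one most limited by depth.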
